A study of Mus musculus with 6 samples.

Results

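MHC class II genes and Ciita were examined in an ATAC-seq series of mouse bone marrow-derived macrophages (BMDMs). In ATAC-seq a transposase inserts adapters where DNA is open, so that reads pile up at accessible chromatin, called sites here. Members were the sites of the deposited site table that lie inside either of 2 stretches of the mm9 genome. The class II window was chr17:34250000-34520000, which runs from H2-DMa to H2-Ea and takes in H2-DMb1, H2-Ab1, H2-Aa and H2-Eb1. The Ciita window was chr16:10430000-10560000. The class II window held 91 sites and the Ciita window 41 of 578591 sites in all, with a median width of 276 and 269 bp. The sites covered 31.6 kb of 270 kb and 12.4 kb of 130 kb.

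The 6 libraries form 6 groups of 1 library each, to ask how IL-4 and 2 treatments that act on the macrophage cytoskeleton alter accessibility. All of them came from mice of strain C57BL/6 (C57BL/6J in the growth protocol), and the cells were grown from marrow in medium conditioned by L929 cells, a source of MCSF that every group therefore shares. The groups were Untreated, IL-4 (20 ng/ml for 24 hours), DMSO, DMSO + IL-4, LatA + IL-4 (latrunculin A at 1 μM, an inhibitor of actin assembly given in DMSO) and MCSF + IL-4 (100 ng/ml). DMSO + IL-4 served as the control of LatA + IL-4, and IL-4 that of MCSF + IL-4. With 1 library per group there is no replicate check, each ratio compares a pair of libraries and not a pair of conditions, and the intervals around read totals and ratios are 95% exact intervals that cover counting error only. Neither the number of mice behind a library nor its cell count is in the labels. A change in the share of cells that are open at a site and a change in how open each cell is cannot be told apart.

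MHC class II molecules show peptides taken up from outside the cell to CD4+ T cells. H2-Aa and H2-Ab1 encode the α and β chains of I-A, and H2-Eb1 encodes the β chain of I-E, whose α chain gene H2-Ea is defective in C57BL/6 mice. H2-DMa and H2-DMb1 encode the chaperone that exchanges peptides in the class II groove. Ciita encodes the class II transactivator, which does not bind DNA itself but joins a complex of RFX, CREB-family factors and NF-Y on the X and Y boxes of class II promoters. Macrophages carry little class II at rest, and both interferon γ and, in mice, IL-4 are known to raise it. In the RefSeq order of genes on chromosome 17, noncoding RNA genes left out, H2-DMa is followed by H2-DMb2, H2-DMb1, Psmb9, Tap1, Psmb8, Tap2, H2-Ob, H2-Ab1, H2-Aa, H2-Eb1, H2-Eb2 and H2-Ea. Psmb8, Psmb9, Tap1 and Tap2, which prepare peptides for class I, thus lie inside the class II window. Ciita lies between Tvp23a and Dexi, with Clec16a after Dexi. How much of the Ciita window lies outside Ciita was not determined. The site table names no genes and the reference sequence used here is of another build, so sites are given by position and are not tied to single genes. A class II site or a Ciita site below means a site inside that window, and it may belong to another gene.

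The promoters show what the genes have in common in sequence. RefSeq promoters of GRCm38.p6, 250 bases before to 50 after the start, were found for 4 of the 6 members: H2-DMa, with 2 entries, H2-DMb1, H2-Aa and H2-Eb1. No entry was found for H2-Ab1 and Ciita. In H2-DMb1, H2-Aa and H2-Eb1 the letters TNGNAACT, from the first part of the X box, stood upstream of TGATTGG, the Y box with its reversed CCAAT. The stretches that hold both follow, 5′ to 3′ on the strand of the gene, with the 2 motifs in capitals.
H2-DMb1, chr17:34153085-34153144, plus strand: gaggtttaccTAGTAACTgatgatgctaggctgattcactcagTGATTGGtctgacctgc
H2-Aa, chr17:34287857-34287916, minus strand: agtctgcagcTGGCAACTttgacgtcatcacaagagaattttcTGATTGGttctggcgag
H2-Eb1, chr17:34305764-34305822, plus strand: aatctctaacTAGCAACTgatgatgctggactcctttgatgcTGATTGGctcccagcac

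The first base of the X motif and that of the Y motif were 33 bases apart in H2-DMb1 and H2-Aa and 32 in H2-Eb1. Neither motif was in the 2 H2-DMa entries, and other possible starts of that gene were not examined. On either strand, TNGNAACT was in 12.3% and TGATTGG in 7.82% of 32851 promoters of the same length. The pair, in this order on the strand of the gene and at most 60 bases apart, was in 9 promoters (0.0274%). The other 6 were 1700048F04Rik, BC051142, Creg1, Dnajc7, Gm46361 and Mrpl37. The letters were chosen after the member promoters had been read, so the matches are a description. No ATAC-seq value is tied to them, since the sites are in mm9.

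Reads were most numerous in LatA + IL-4 in both windows. Normalized reads are reads divided by the effective library size of the deposited table and set to a common size. Summed over the 91 class II sites they came to 1506 for Untreated (interval 1441 to 1573), 1402 for IL-4 (1330 to 1476) and 1826 for DMSO (1748 to 1908). They came to 1456 for DMSO + IL-4 (1374 to 1541), 2623 for LatA + IL-4 (2521 to 2728) and 1962 for MCSF + IL-4 (1869 to 2058). The LatA + IL-4 interval did not overlap that of any other library. Over the 41 Ciita sites the totals were 728 for Untreated (683 to 775), 665 for IL-4 (615 to 717), 948 for DMSO (892 to 1007), 774 for DMSO + IL-4 (714 to 837), 1273 for LatA + IL-4 (1202 to 1347) and 856 for MCSF + IL-4 (795 to 921). In both windows LatA + IL-4 was the highest and IL-4 the lowest library, and DMSO was above Untreated. The intervals of Untreated, IL-4 and DMSO + IL-4 overlap in part in both windows.

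**Figure D1:**
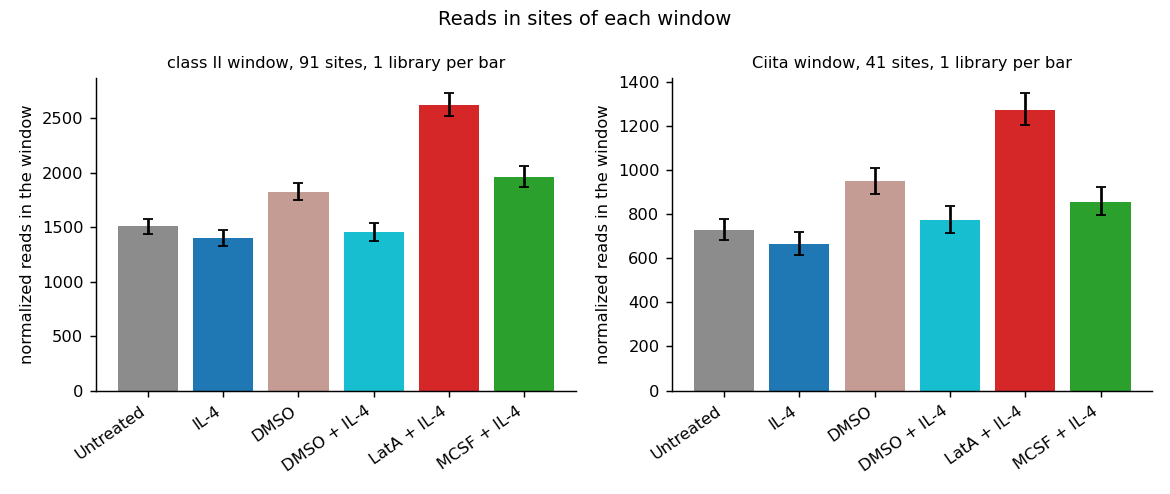
Bars give normalized reads summed over the sites of the class II window (left, 91 sites) and the Ciita window (right, 41 sites) in each of the 6 libraries, with 95% exact Poisson intervals for counting error as error bars. LatA + IL-4 has the tallest bar in both, at 2623 and 1273 normalized reads.

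Latrunculin A went with more reads across both windows. The class II total was 1.80-fold higher in LatA + IL-4 than in DMSO + IL-4 (1.68 to 1.93), a log2 ratio of 0.85, and the Ciita total 1.65-fold higher (1.49 to 1.82), a log2 ratio of 0.72. More normalized reads were found at 68 of 91 class II sites and 29 of 41 Ciita sites, where 48.5% of all sites of the table went this way. For scale, the whole genome was divided into windows of the same lengths, and those with a mean total of at least 200 normalized reads were kept. Of 9432 windows of 270 kb, 11.3% were higher by 1.5-fold in LatA + IL-4, and their log2 ratios had a median of 0.05 and a 5th to 95th percentile range of -0.42 to 0.69. Of 17443 windows of 130 kb, 14.3% were higher by 1.5-fold, with a 95th percentile of 0.75. The class II window was therefore above the 95th percentile of windows of its length, and the Ciita window just below it.

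With MCSF the totals moved the same way by less. The class II total was 1.40-fold higher in MCSF + IL-4 than in IL-4 and the Ciita total 1.29-fold higher, log2 ratios of 0.49 (0.38 to 0.59) and 0.37 (0.21 to 0.52). More reads were found at 60 of 91 and 20 of 41 sites, beside 48.7% of all sites. The share of windows higher by 1.5-fold in MCSF + IL-4 was 13.9% at 270 kb and 16.5% at 130 kb, and neither window was among them. Both log2 ratios lay inside the 5th to 95th percentile range of windows of their length, -0.40 to 0.73 and -0.45 to 0.80. With DMSO + IL-4 as the control, chosen after seeing the data, the log2 ratios were 0.43 for class II and 0.15 for Ciita. The scale bears on these sizes. Taking the total of reads outside the 295 sites of at least 1000 reads as the scale lowered every log2 ratio by 0.20 for latrunculin A and 0.21 for MCSF, and by 0.11 for DMSO against Untreated.

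At single sites, the comparison was limited to those whose mean over the libraries reached 20 normalized reads, which kept 26 class II sites and 12 Ciita sites and left out 65 and 29. Because a site can pass through the library where it is high, the counts that follow are a description and the totals above are the base. The site closest under the limit, chr17:34371927-34372290, had a mean of 19.998, and the closest over it, chr17:34342888-34343167, a mean of 20.3. Sites past 1.5-fold in normalized reads, with 1 read added to both libraries, are called higher or lower below.

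With latrunculin A 17 of 26 class II sites were called higher and 2 lower, and 9 of 12 Ciita sites higher and none lower. Over all 132057 sites compared, 30.1% were higher and 15.7% lower. Scaled to reads outside the largest sites, 13 class II and 8 Ciita sites were higher and 4 and 0 lower, beside 19.9% and 23.2% of all sites. The median log2 ratio was 0.79 for class II and 1.07 for Ciita, beside 0.20 over all sites compared. Ratios with latrunculin A went up with read number in the whole table. With that trend removed, 10 of 26 class II and 7 of 12 Ciita sites were higher, beside 19.2% of all sites, and the medians were 0.46 and 0.88. Sites of like depth were also set side by side. Among sites of 20 to 50 mean reads, 11 of 19 class II and 7 of 9 Ciita sites were called higher, where 24.9% of all such sites were. Among sites of 50 to 100 mean reads, 6 of 7 and 1 of 2 were, where 43.4% of all such sites were, with a median of 0.81 for class II and 0.36 for Ciita beside 0.49. LatA + IL-4 was the highest of the 6 libraries at 17 of 26 class II and 9 of 12 Ciita sites, against 31.8% of all sites compared.

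With MCSF 15 of 26 class II sites were called higher and 3 lower, and 4 of 12 Ciita sites higher and none lower, beside 29.2% higher and 14.9% lower over all sites. Scaled to reads outside the largest sites, 10 and 3 were higher and 4 and 0 lower, beside 19.3% and 23.4%. The medians were 0.68 and 0.39, beside 0.16 over all sites. Ratios with MCSF also went up with read number in the whole table. Among sites of 20 to 50 mean reads, 11 of 19 class II and 2 of 9 Ciita sites were called higher, beside 23.1% of all such sites. Among those of 50 to 100 mean reads, 4 of 7 and 1 of 2 were, beside 43.3%. The treatment comparisons have no library in common. Higher in both were 12 of 26 class II and 3 of 12 Ciita sites, where 15.4% of all sites were. Lower in both were 2 class II sites and no Ciita site, where 4.36% of all sites were. One of these 2, chr17:34490093-34491260, had 0 reads in DMSO and 1 in LatA + IL-4 and is also 1 of the 2 lower with latrunculin A. The Ciita counts rest on 12 sites and move by large steps.

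**Figure D2:**
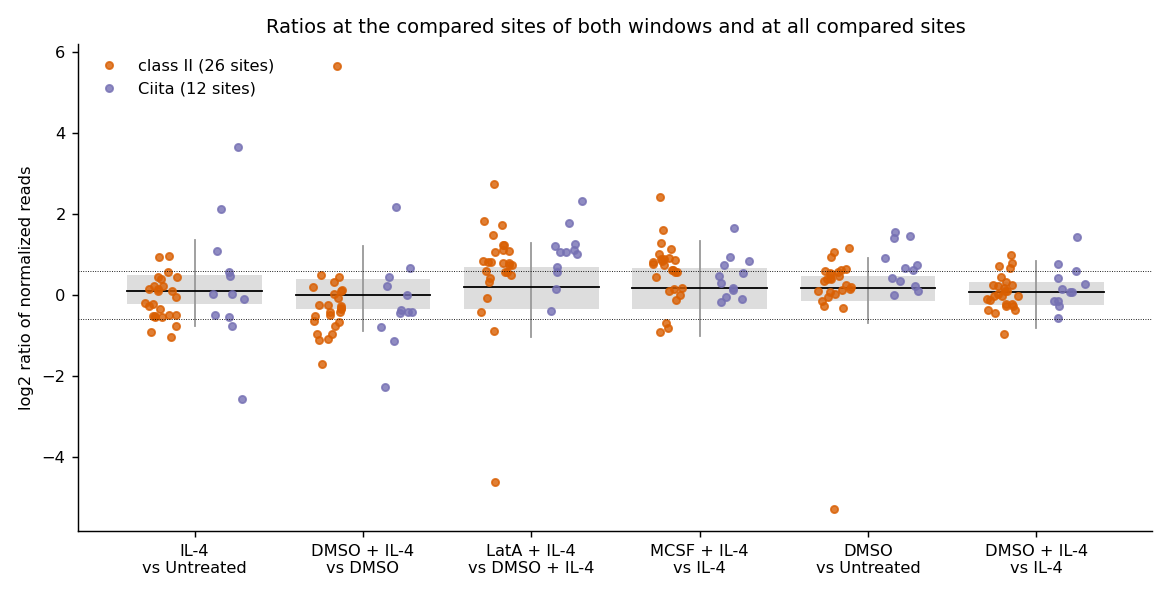
Points are the compared sites of the class II window (26, orange) and the Ciita window (12, purple), as log2 ratios of normalized reads with 1 read added in 6 comparisons. Grey boxes, black lines and grey whiskers give the quartiles, the median and the 5th to 95th percentiles of all 132057 compared sites, and dotted lines mark 1.5-fold. Class II and Ciita points sit mostly above the black line, at a median of 0.20, in the LatA + IL-4 column.

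Along the class II window the treatments differed in where reads were added. The window was divided into stretches of 90 kb, numbered from the H2-DMa side, which held 33, 37 and 21 sites. For latrunculin A the log2 ratios of the summed reads were 0.92 (0.78 to 1.06), 0.80 (0.60 to 0.99) and 0.75 (0.54 to 0.97), with intervals that overlap. For MCSF they were 0.80 (0.65 to 0.94), 0.19 (-0.01 to 0.39) and 0.12 (-0.10 to 0.35). The first stretch was thus above the others with MCSF beyond counting error. The second stretch rests on chr17:34347292-34347949 with MCSF and was at -0.01 without it (-0.22 to 0.19), and the third was at 0.25 without chr17:34490093-34491260 (0.008 to 0.49).

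Several of the sites with the most reads lay close together near the start of the window. The site chr17:34257826-34258563 had the highest mean, with 75.5 normalized reads for Untreated, 44.2 for IL-4, 82.8 for DMSO, 87.9 for DMSO + IL-4, 124 for LatA + IL-4 and 137 for MCSF + IL-4. It was low in the IL-4 library alone, which is the control for MCSF. The ratio was 3.10 with MCSF (2.18 to 4.48) and 1.42 with latrunculin A (1.05 to 1.93). The site was not above its control with latrunculin A once the trend with read number was removed. Its neighbour chr17:34255986-34256628 had 75.5, 53.0, 89.2, 56.9, 96.0 and 91.4 in the same order of libraries, which is kept below. There both IL-4 libraries without a further treatment were the lowest. The site chr17:34259458-34259856, 1 kb further on, had 33.3, 22.6, 42.3, 21.0, 50.6 and 50.4. It led the sites that were higher with both treatments, with ratios of 2.41 (1.36 to 4.46) for latrunculin A and 2.23 (1.31 to 3.88) for MCSF.

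Of the other sites with many reads, chr17:34324174-34324887 had 79.2, 55.9, 118, 59.4, 127 and 104 normalized reads. Both treated libraries and DMSO stood above the others there, with a ratio of 2.13 for latrunculin A (1.51 to 3.04) and 1.86 for MCSF (1.32 to 2.65). The site chr17:34272198-34272827 had 64.4, 71.7, 101, 70.6, 125 and 107, with the same 3 libraries highest. At chr17:34484556-34485208, near the H2-Ea end, the 4 libraries with neither treatment were close together, at 57.0, 55.0, 61.2 and 61.9, LatA + IL-4 had 134 and MCSF + IL-4 had 84.3. The ratio was 2.16 for latrunculin A (1.55 to 3.07) and 1.53 for MCSF (1.07 to 2.22). Also among the 10 with the most reads were chr17:34279916-34280349, chr17:34334289-34334817 and chr17:34254056-34254332, with means of 56.0, 39.5 and 37.5 and 80.1, 52.7 and 49.6 in LatA + IL-4. A treated library was the highest at all 3. Of those 10 sites, chr17:34484556-34485208, chr17:34272198-34272827 and chr17:34279916-34280349 were closest to the class II total over the 6 libraries, with Pearson correlations of log2 values of 0.94, 0.94 and 0.92. The 6 points share libraries and depth with the total, and each site is part of it.

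Some class II sites went with 1 treatment alone. At chr17:34394378-34394946 LatA + IL-4 had 104 normalized reads and the other 5 libraries 18.5 to 37.3. The ratio was 3.67 for latrunculin A (2.31 to 6.05) and 0.91 for MCSF (0.54 to 1.52). At chr17:34347292-34347949 the order was turned round, with 77.3 in MCSF + IL-4, 21.1 in LatA + IL-4 and 6.66 to 22.3 elsewhere. The ratio was 5.63 for MCSF (3.13 to 10.8) and 0.95 for latrunculin A (0.48 to 1.90). The intervals of the treatments do not overlap at either site. The highest latrunculin A ratio among the class II sites compared, 7.19 (3.60 to 16.3), was at chr17:34432977-34433444, which had 28.9, 22.6, 38.7, 11.1, 80.1 and 43.3. Its control library, DMSO + IL-4, was the lowest of the 6 there, and against the other IL-4 library the log2 ratio was 1.78 instead of 2.74.

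Few class II sites were lower with the treatments. The wide site chr17:34356566-34357680 had 41.4, 34.4, 34.2, 28.5, 14.8 and 17.6 normalized reads, lowest in the treated libraries, with a ratio of 0.52 for latrunculin A (0.25 to 1.05) and 0.51 for MCSF (0.26 to 0.96). Nearby, chr17:34358748-34359237 had 13.7 and 14.1 in LatA + IL-4 and MCSF + IL-4 and 18.6 to 27.0 elsewhere. The site chr17:34490093-34491260 was nearly without reads in a pair of libraries. It had 52 reads for Untreated, 59 for IL-4, 40 for DMSO + IL-4 and 30 for MCSF + IL-4, beside the 0 for DMSO and 1 for LatA + IL-4. A peak was called over it in the first 4 libraries and in neither of the last 2. No fold is given for it, and the lack of reads followed neither IL-4, the vehicle nor latrunculin A across the 6 libraries. Without it the class II total had a log2 ratio of 0.90 with latrunculin A.

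**Figure D3:**
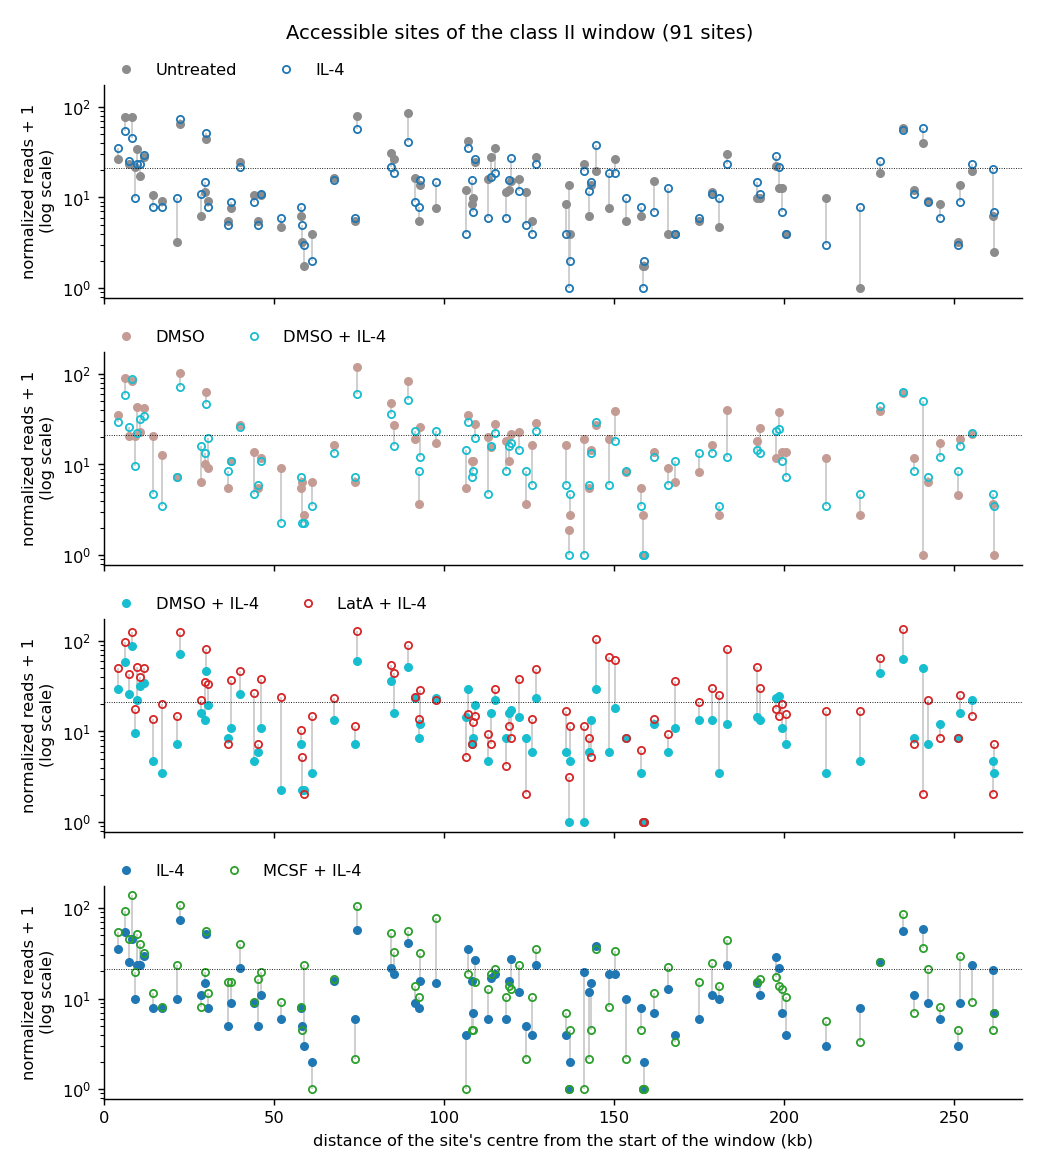
Normalized reads plus 1, on a log scale, at the 91 class II sites against distance from the start of the window in kb, for 4 pairs of libraries. Grey lines join the libraries of a pair and the dotted line marks 20 normalized reads. In the third panel open LatA + IL-4 points lie above DMSO + IL-4 at 68 of 91 sites, along the whole window, and in the bottom panel the MCSF + IL-4 total exceeds that of IL-4 by a log2 ratio of 0.80 in the first 90 kb.

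IL-4 went with slightly fewer reads in the class II total. The total had a log2 ratio of -0.10 in IL-4 against Untreated (-0.20 to -0.005) and -0.33 in DMSO + IL-4 against DMSO (-0.43 to -0.22), or -0.13 and -0.38 without chr17:34490093-34491260. For windows of 270 kb over the genome, the 5th percentile of the log2 ratio of the total was -0.21 and -0.25 in these comparisons. More reads were found at 43 of 91 sites and fewer at 48 for IL-4 against Untreated, and at 34 and 56 for DMSO + IL-4 against DMSO, where 50.7% and 49.2% of all sites had more. By 90-kb stretch, the log2 ratio there was -0.25 (-0.39 to -0.10), -0.12 (-0.30 to 0.06) and, at the H2-Ea end, 0.24 (0.02 to 0.45). With DMSO it was -0.42 (-0.57 to -0.27), -0.38 (-0.58 to -0.18) and -0.03 (-0.26 to 0.20). The last stretch holds chr17:34490093-34491260, with 0 reads in DMSO, and without that site its ratios were 0.18 (-0.06 to 0.41) and -0.26 (-0.50 to -0.02). The stretch at the H2-Ea end was thus not above 0 beyond counting error once that site was left out. Of 26 sites, 2 were called higher and 3 lower without vehicle, beside 20.8% and 8.88% of all sites, and 1 higher and 8 lower with DMSO, beside 16.6% and 12.8%. The 1 higher with DMSO is chr17:34490093-34491260, with its 0 reads in DMSO. With the trend with read number removed, 9 instead of 3 were lower without vehicle, beside 12.4%. On the scale outside the largest sites, 3 were higher and 7 lower without vehicle, beside 17.6% and 11.8%. The comparisons share no library. None of the 26 sites was higher in both, where 8.73% of all sites were, and 1 was lower in both, where 2.38% were. That site, chr17:34338821-34340136, had 84.3, 40.2, 81.9, 50.75, 89.6 and 55.1 normalized reads, with ratios of 0.48 (0.33 to 0.69) and 0.62 (0.42 to 0.91). LatA + IL-4 there had as many reads as the libraries without IL-4.

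Further named sites leaned the same way in both IL-4 comparisons without passing 1.5-fold in both. The site chr17:34260482-34260726 had 16.3 and 21.6 normalized reads without IL-4 and 22.6, 30.9, 39.0 and 38.7 in the 4 IL-4 libraries. A peak was called over it in those 4 libraries and in neither of the others. By contrast, chr17:34334991-34335419 had 25.9 and 26.1 without IL-4, 17.7 in IL-4 and 14.9 in DMSO + IL-4, with 43.2 and 31.6 once latrunculin A or MCSF was added.

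At Ciita the sites did not move together with IL-4. The Ciita total had a log2 ratio of -0.13 in IL-4 against Untreated (-0.28 to 0.01) and -0.29 in DMSO + IL-4 against DMSO (-0.44 to -0.15). More reads were found at 26 of 41 sites and fewer at 14 in the first comparison, and at 23 and 17 in the second. Of all sites, 50.7% and 49.2% had more. A single site set the direction of the first. The site chr16:10498883-10499075, only 193 bp wide, had 182 normalized reads for Untreated, 29.4 for IL-4, 180 for DMSO, 81.7 for DMSO + IL-4, 62.2 for LatA + IL-4 and 25.8 for MCSF + IL-4. It was high in both libraries without IL-4 and lower in all 4 with it, with a ratio of 0.16 (0.11 to 0.24) without vehicle and 0.45 (0.34 to 0.60) with DMSO. The authors' fold enrichment of its peak was 41.9 in Untreated and 42.5 in DMSO, the highest of the window. Without this site the log2 ratio of the Ciita total was 0.22 for IL-4 against Untreated and -0.15 for DMSO + IL-4 against DMSO. In stretches of 65 kb the ratio for IL-4 against Untreated was 0.36 (0.15 to 0.57) in the first and -0.55 (-0.75 to -0.35) in the second, which holds that site. For DMSO + IL-4 against DMSO it was -0.17 (-0.39 to 0.05) and -0.39 (-0.58 to -0.20), so that the first stretch was not above 0 with the vehicle. That value rests on chr16:10481888-10482921, without which it was 0.10 (-0.13 to 0.34). Without the site 193 bp wide, the second stretch was at 0.051 (-0.18 to 0.28) and -0.13 (-0.36 to 0.09).

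Of the 12 Ciita sites compared, 3 passed 1.5-fold upward and 2 downward for IL-4 against Untreated, beside 20.8% and 8.88% of all sites. For DMSO + IL-4 against DMSO 2 passed upward and 3 downward, beside 16.6% and 12.8%. Higher in both was 1 site and lower in both were 2, beside 8.73% and 2.38%. With 12 sites, the upward counts are near these shares. The site higher in both, chr16:10486837-10487211, had 2 reads for Untreated, 31 for IL-4, 7 for DMSO, 26 for DMSO + IL-4, 34 for LatA + IL-4 and 24 for MCSF + IL-4. That is 1.48 and 6.30 normalized reads without IL-4 and 28.1 to 35.9 in the 4 IL-4 libraries, with no overlap. The ratio was 20.6 (5.23 to 177) without vehicle and 5.11 (2.16 to 13.9) with DMSO. For the treatments the intervals include 1, with ratios of 1.11 (0.65 to 1.93) and 0.92 (0.52 to 1.63).

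By the authors' peak lists, some Ciita sites had a peak in the IL-4 libraries alone. A peak in all 4 IL-4 libraries and in neither of the other 2 was found at 5 of 41 Ciita sites, which is 12.2%, and at 1 of 91 class II sites, where 1.17% of all sites in the table have this pattern. The opposite pattern, a peak in Untreated and DMSO and in none of the 4 IL-4 libraries, was at no Ciita site and 2 class II sites, beside 1.9% of all sites. This way of counting was chosen after the peaks had been seen. Of the 5 Ciita sites, 4 lay within 9.78 kb, from chr16:10486837-10487211 through chr16:10488013-10488290 and chr16:10489227-10489519 to chr16:10495989-10496616. Together they held 31.8 normalized reads for Untreated, 77.5 for IL-4, 42.3 for DMSO, 104 for DMSO + IL-4, 163 for LatA + IL-4 and 141 for MCSF + IL-4. The summed ratio was 2.44 (1.66 to 3.62) without vehicle and 2.46 (1.70 to 3.59) with DMSO, and the treatments stood above their controls by 1.57 (1.20 to 2.08) and 1.81 (1.35 to 2.44). These sites were chosen for their peaks in the same libraries, so the ratios are a description. In reads they differed among themselves. The second had a ratio of 1.92 (0.76 to 5.08) without vehicle and 2.75 (1.17 to 6.95) with DMSO, and the third 3.03 (1.18 to 8.72) and 2.14 (0.86 to 5.60), so that at each of them 1 interval includes 1. The last, chr16:10495989-10496616, had 18.5, 18.6, 19.8, 32.2, 48.5 and 60.9 normalized reads, with IL-4 ratios of 1.01 (0.52 to 1.91) and 1.62 (0.89 to 3.01), both within counting error of 1. Its treated libraries were the highest.

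**Figure D4:**
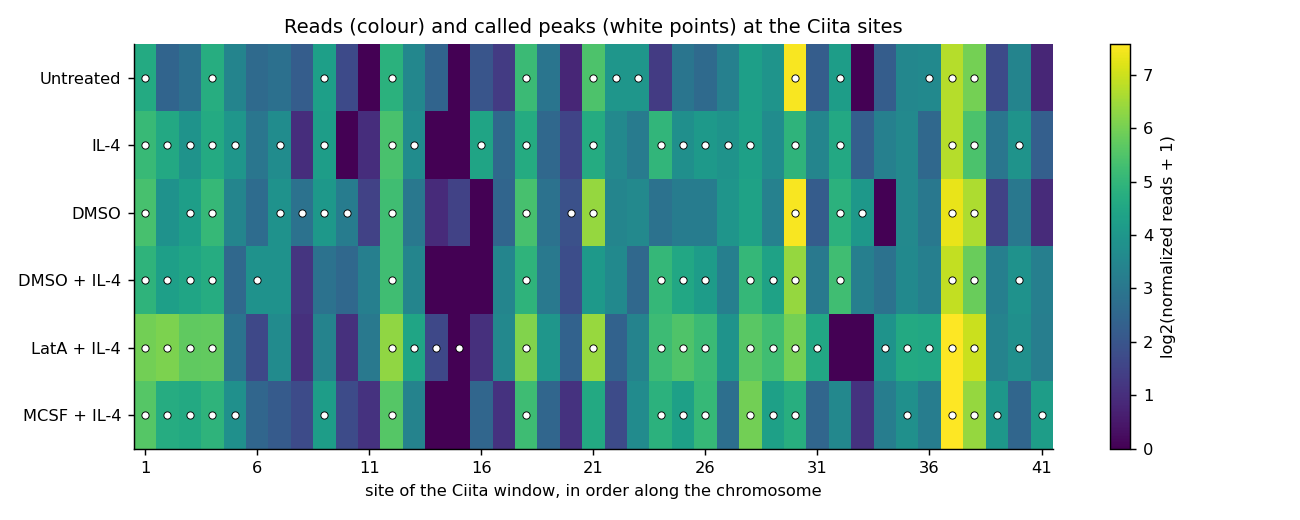
Each column is 1 of the 41 Ciita sites in order along the chromosome and each row a library. Colour gives log2 of normalized reads plus 1, and a white point marks a peak in that library's list. Columns 24, 25, 26 and 28 carry points in the 4 IL-4 libraries and none in Untreated and DMSO.

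The fifth site with that pattern lay near the start of the window, chr16:10436363-10436684, with 4.44, 22.6, 13.5, 18.6, 66.4 and 24.6 normalized reads. LatA + IL-4 was the highest there by far, with a ratio of 3.58 (2.01 to 6.77). Its neighbour chr16:10441475-10441829 had 5.92, 13.7, 18.0, 21.0, 51.7 and 23.4, again highest with latrunculin A, and its IL-4 ratios of 2.32 (0.91 to 6.39) and 1.17 (0.58 to 2.35) are within counting error of 1.

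The site of the Ciita window with the most reads was open in every library. The site chr16:10542872-10543446 had the highest mean of both windows, 144, with 104 normalized reads for Untreated, 105 for IL-4, 160 for DMSO, 116 for DMSO + IL-4, 189 for LatA + IL-4 and 190 for MCSF + IL-4. Untreated and IL-4 had a ratio of 1.01 there (0.78 to 1.30), and it was higher with both treatments, by 1.62 (1.26 to 2.11) and 1.81 (1.41 to 2.33). Next to it chr16:10545231-10545593 had 62.2, 42.2, 99.1, 56.9, 124 and 82.0. Its log2 ratios in the IL-4 comparisons were -0.55, short of 1.5-fold, and -0.79, and it was higher with both treatments, by 1.11 and 0.94. Over the 6 libraries these 2 sites and chr16:10461275-10461669 were closest to the Ciita total of the 5 with the most reads, with Pearson correlations of 0.83, 0.95 and 0.79, a description over 6 points that share depth with the total. The last had 79.1 normalized reads in LatA + IL-4 and 27.4 to 46.9 elsewhere.

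Among the Ciita sites compared, chr16:10481888-10482921 had the widest gap between the treatments. It had 42.9, 24.5, 81.9, 16.1, 84.4 and 23.4 normalized reads, high in DMSO and LatA + IL-4. The ratio was 5.24 (2.90 to 10.3) for latrunculin A and 0.96 (0.50 to 1.79) for MCSF, with intervals that do not overlap. The control for latrunculin A, DMSO + IL-4, was the lowest of all libraries there, at 16.1 beside 24.5 in IL-4. DMSO + IL-4 was 0.20 of DMSO (0.10 to 0.35) and IL-4 was 0.57 of Untreated (0.34 to 0.93). In stretches of 65 kb, latrunculin A had a log2 ratio of 0.98 (0.78 to 1.19) in the first and 0.46 (0.26 to 0.66) in the second. MCSF had 0.12 (-0.10 to 0.34) and 0.61 (0.39 to 0.82), the other way round. In the second stretch, chr16:10507032-10507379, under the limit with a mean of 19.3, had 24 reads for Untreated, 23 for IL-4, 31 for DMSO, 30 for DMSO + IL-4, 0 for LatA + IL-4 and 9 for MCSF + IL-4. Peaks were called over it in the first 4 and in neither treated library.

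**Figure D5:**
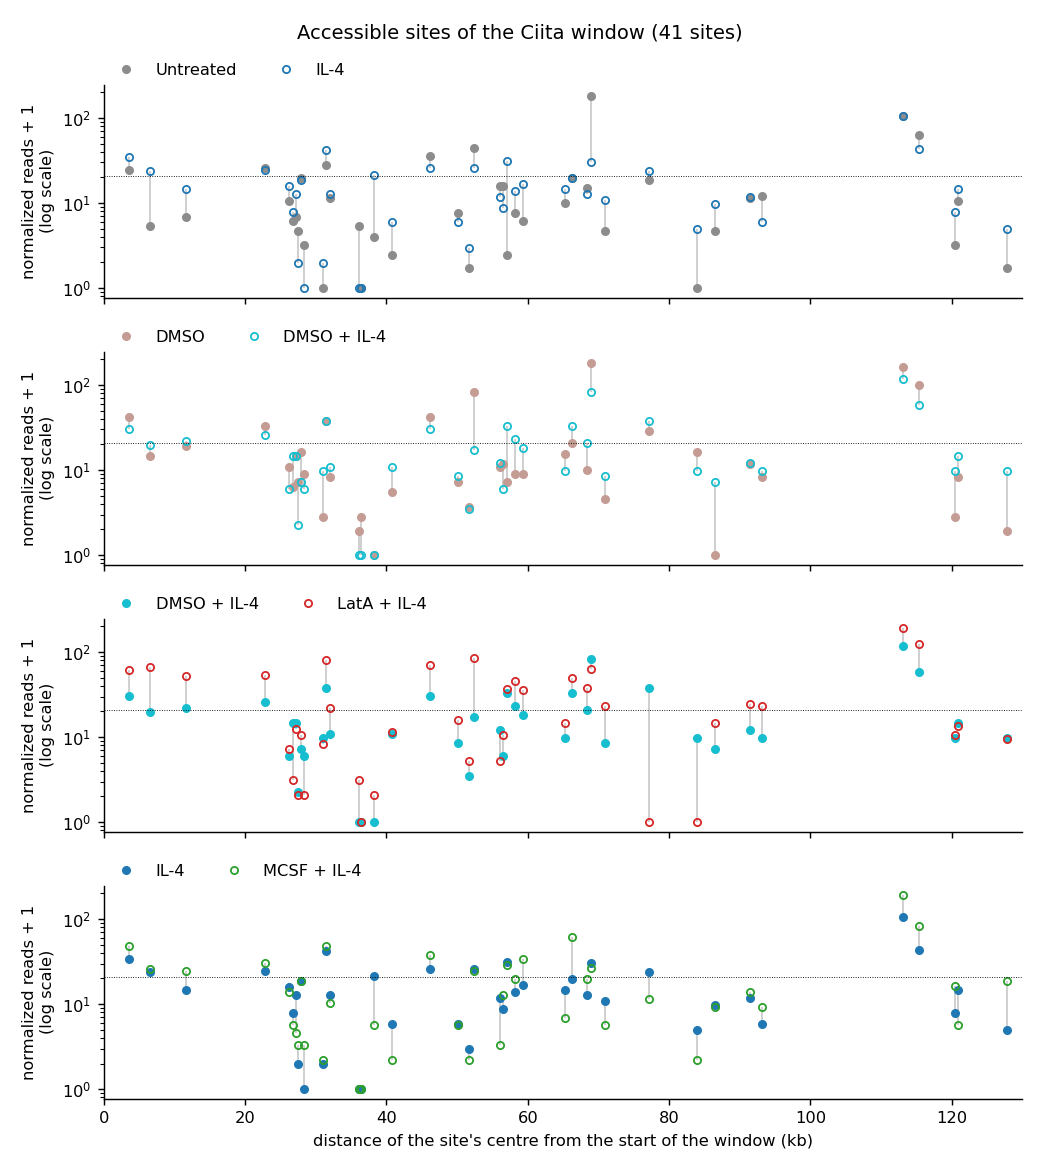
Normalized reads plus 1, on a log scale, at the 41 Ciita sites against distance from the start of the window in kb, for 4 pairs of libraries. Grey lines join the libraries of a pair and the dotted line marks 20 normalized reads. The point with 182 normalized reads in Untreated and 29.4 in IL-4 is the site 193 bp wide, and LatA + IL-4 lies above DMSO + IL-4 at 29 of 41 sites.

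The DMSO library had more reads than Untreated in both windows, by a log2 ratio of 0.28 (0.19 to 0.37) in the class II total and 0.38 (0.25 to 0.51) in the Ciita total. Both lie inside the 5th to 95th percentile range of windows of their length, -0.18 to 0.38 and -0.23 to 0.43. Of the sites compared, 6 class II and 7 Ciita sites were called higher and 1 and 0 lower, beside 16.8% and 7.24% of all sites. The 1 lower is again chr17:34490093-34491260. Scaled to all reads in sites, the higher calls were 3 and 5, beside 10.8% higher and 10.7% lower, and the class II log2 ratio was 0.15. DMSO + IL-4 was close to IL-4 in the class II total, at 0.05 (-0.06 to 0.17), and above it in the Ciita total, at 0.22 (0.06 to 0.38). Without chr16:10498883-10499075 the Ciita value was 0.12. In this comparison 4 class II and 2 Ciita sites were called higher and 1 and 0 lower, beside 11.2% and 9.8% of all sites.

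The peak lists, which were called on each library separately, also put LatA + IL-4 first. In the class II window 44 peaks were called for Untreated, 38 for IL-4, 45 for DMSO, 35 for DMSO + IL-4, 54 for LatA + IL-4 and 45 for MCSF + IL-4. They covered from 9.09 kb (DMSO + IL-4) to 16.5 kb (LatA + IL-4). In the Ciita window the numbers were 14, 22, 16, 17, 24 and 19. LatA + IL-4 had the most peaks in both windows, while its list was the shortest in the whole genome, at 222076 peaks. Ciita had more peaks in IL-4 than in Untreated, whose whole list was the longest at 269643. A peak does not always go with counted reads: chr16:10466298-10466447 has a peak in LatA + IL-4 and 0 reads in the table for that library. A peak in LatA + IL-4 alone was called at 13 of 91 class II and 4 of 41 Ciita sites, beside 6.12% of all sites. Peaks in both treated libraries and in neither of their controls were at 8 class II sites and 1 Ciita site, beside 3.23%, and the reverse at 5 and 1, beside 2.79%. Sites with a peak in all 6 lists were 15 of 91 and 7 of 41, beside 11.6% of all sites.

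Depth limits the smaller sites. Reads in sites numbered 12387332 to 19889902 per library, so that the limit of 20 normalized reads stood for 16.2 to 27.0 reads, and between 13.5% and 22.2% of reads in sites lay in the 20 largest sites of the table. Reads in the study's alignment could be reported at up to 10 places, and class II genes are related in sequence. Reads at a site may therefore come from a paralog, which was not tested. Markers of macrophages and of other class II-bearing cells, such as dendritic and B cells, are not analysed here, since the sites carry no gene names, and their part in these totals was not tested.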

How the data were processed

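ATAC-seq was measured in 6 libraries. Per the study's methods, reads were trimmed with Cutadapt, aligned to mm9 with Bowtie2 (up to 10 alignments per read), cleared of duplicates with Picard and of blacklisted and mitochondrial reads, and read ends, shifted and extended around the transposase cut, gave peaks with macs2 at a q-value of 0.05. The tool featureCounts gave the number of reads in each site. Tool versions and the way per-library peaks became 1 site table are not given in the sources used here. The signal in the deposited site table is CPM that the authors scaled by trimmed mean of M-values in edgeR. Its steps gave whole reads for 100% of values, within 0.1 of a read. The deposited peak lists give a fold enrichment, a ratio within 1 library, and a −log10 q-value, used as a threshold only. The deposited score column was not used.

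Normalized reads are whole reads over the effective library size behind each deposited column, with 0 columns left out. Ratio intervals are exact (Clopper-Pearson) and totals have exact Poisson intervals, which cover counting error alone, as no molecular identifiers mark independent molecules. The 1.5-fold rule is the study's. Analyses used Python 3.11.15 with numpy 2.4.6, pandas 2.3.3, scipy 1.17.1 and matplotlib 3.10.9. Members, lists and comparisons were chosen with earlier results of these data known. Named sites are, per window, those with the most mean reads (10 for class II, 5 for Ciita), and the 3 with the largest rise and fall in both IL-4 comparisons and in both treatment comparisons, ranked by the smaller ratio. The 3 of the first kind most correlated with the window total are also given. The pathway and marker gene lists are not analysed here, because reference positions are of GRCm38 and no coordinates were converted. Alternatives were other scales, other filters, 5 reads added, removal of the trend with read number, stricter peaks and, added after seeing the data, 1 site of a window or stretch left out, the other IL-4 library as control, and stricter peaks for the peak patterns.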

Additional observations from a re-analysis of the deposited data

How the results depend on the processing

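No paired analysis was possible because each group has 1 library and the labels give no replicate numbers to pair by. The IL-4 comparisons with and without vehicle stand side by side, and an additive model over those 4 libraries was not run. No result changed sides of 1.5-fold to the opposite call under any alternative run. With total reads outside the sites of at least 1000 reads as the scale, the log2 ratio of the class II total was 0.65 with latrunculin A, 0.28 with MCSF and 0.17 for DMSO against Untreated, and that of the Ciita total 0.52 for latrunculin A and 0.16 for MCSF. With total reads in sites it was 0.15 for DMSO against Untreated in class II. Summing the compared sites only gave 0.65 for MCSF in class II, and in Ciita -0.38 for IL-4 against Untreated, -0.56 for DMSO + IL-4 against DMSO, 0.90 for latrunculin A and 0.59 for MCSF. Leaving out 1 Ciita site, chosen after seeing the data, turned IL-4 against Untreated to 0.22. Leaving out each site of a stretch in turn, also added then, put the lowest or the highest value outside the counting interval of its stretch in 8 cases and kept it inside in 52. The other IL-4 library as control, also chosen after seeing the data, gave 0.94 for latrunculin A and 0.15 for MCSF in Ciita. Removing the trend with read number left 10 of 26 class II sites higher with latrunculin A (19.2% of all sites) and 2 of 12 Ciita sites higher with MCSF (19.5%), took the class II sites lower in IL-4 against Untreated from 3 to 9 (12.4%) and those higher in DMSO against Untreated from 6 to 3 (10.1%). It also took chr17:34257826-34258563 from 0.50 to -0.09 with latrunculin A. At a minimum of 50 reads, 6 of 7 class II and 2 of 3 Ciita sites were higher with latrunculin A (44.7% of all sites) and 4 and 2 with MCSF (46.0%). With no minimum, 55 of 91 and 23 of 41 were higher with latrunculin A (27.5% of all sites) and 41 and 11 with MCSF (27.5%). These counts move because fewer or more sites enter. Site medians moved by more than the half-width of the counting interval of the total as follows. With reads outside the largest sites as the scale, they were 0.57 in class II and 0.87 in Ciita for latrunculin A, 0.40 and 0.19 for MCSF, and 0.26 in class II for DMSO against Untreated, where total reads in sites gave 0.24. Median-of-ratios factors gave -0.22 instead of -0.12 in class II for IL-4 against Untreated. With the trend removed, class II medians were -0.24 for IL-4 against Untreated, 0.20 for DMSO against Untreated, 0.46 for latrunculin A and 0.43 for MCSF, and Ciita medians 0.88 for latrunculin A and 0.30 for DMSO against Untreated. At a minimum of 50 reads, those of the IL-4 comparisons without and with vehicle were -0.49 and -0.51 in class II and -0.55 and -0.79 in Ciita, instead of -0.12, -0.33, 0.01 and -0.41. There Ciita was at 0.69 for latrunculin A, 0.85 for MCSF and 0.42 in DMSO + IL-4 against IL-4, and class II at 0.24 for DMSO against Untreated. With no minimum, Ciita was at 0.35 and 0.040 in the IL-4 comparisons, 0.69 for latrunculin A, 0.0 for MCSF and 0.25 in DMSO against Untreated, and class II at 0.26 in DMSO against Untreated and 0.50 for MCSF. The other IL-4 library as control gave 0.95 and 1.23 for latrunculin A. For moves other than those of the minimum the cause was not tested. With peaks of a −log10 q of at least 5, 5 Ciita sites still had a peak in the 4 IL-4 libraries alone, beside 0.96% of all sites. No call has a replicate behind it, so depth and 1 library per group limit every value.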
